A study of Mus musculus with 8 samples.

Results

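The genes described here are 10 that store, move, sense or use iron and heme: Lcn2, Slc11a1, Slc11a2, Tfrc, Slc40a1, Fth1, Ftl1, Ncoa4, Ireb2 and Alas1. They were taken by mouse symbol from a table of 55401 genes, and all 10 were found and had enough counts to be tested. The cells were BMDM, macrophages grown in culture from the bone marrow of mice. All mice carried floxed Mettl3 alleles (Mettl3fl/fl). KO macrophages came from Lyz2-Cre-Mettl3fl/fl mice, in which Cre recombinase is driven by the myeloid promoter of the lysozyme gene Lyz2, and WT macrophages came from Mettl3fl/fl mice without Cre. The product of Mettl3 is the methyltransferase that converts adenosines of mRNA to N6-methyladenosine (m6A). Macrophages of each genotype were stimulated overnight with LPS at 50 ng/ml, a bacterial ligand of TLR4, and then with nigericin at 10 µM for 3 h, an ionophore that lets potassium leave the cell and so sets off the NLRP3 inflammasome, or received PBS. There were 2 libraries in each of 4 groups: stimulated KO, KO with PBS, stimulated WT and WT with PBS. "Stimulated" stands for LPS followed by nigericin throughout. The sources used here do not give mouse age or sex, or how many mice stand behind a library.

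Macrophages take up iron from transferrin through the receptor TFRC and recover it from the heme of engulfed red cells. Iron that is not used is stored in the shell of ferritin, released again when the receptor NCOA4 delivers ferritin to autophagy, or exported by ferroportin, the product of Slc40a1. Iron regulatory proteins, of which IREB2 (IRP2) is one, bind stem-loops in the mRNAs of ferritin, ferroportin and TFRC when iron is scarce. During infection macrophages are known for keeping iron away from microbes, and LCN2 takes part by binding the siderophores with which bacteria collect it.

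The libraries held 55032057 to 65487739 counts. No label states whether both libraries of a group stem from different mice or dishes. A p-value here rests on the spread between libraries of the same group, estimated jointly over the 4 groups. That spread may be only technical. Mettl3 had 9.08 and 7.87 CPM (counts scaled to library size with TMM factors, the unit of all levels unless stated) in stimulated KO against 28.2 and 23.4 CPM in stimulated WT. With PBS it had 5.63 and 6.33 CPM in KO and 13.6 and 13.3 CPM in WT, so all KO libraries lay below all WT libraries of the same treatment. Counts cover whole genes, so they include any transcript from which Cre removed the floxed exons alone. All 10 macrophage markers were detected in every group, with Lyz2 the most abundant at 14744 to 35400.2 CPM. The erythroid markers, whose cells make most heme and much ferritin, summed to 0.807 to 2.33 CPM over all libraries, and Slc4a1 and Rhag had 0 counts in all of them. In bulk RNA, fewer cells of a type and less RNA per cell cannot be told apart, and the KO macrophages carry Cre while the WT macrophages do not, so Cre and loss of Mettl3 cannot be told apart.

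Both ferritin genes, Slc40a1 and Tfrc are the members in which a search of the annotated untranslated regions found the iron-responsive element, the stem-loop through which iron regulatory proteins act, and the sequences are shown because the element groups 4 members whose values are set side by side. The search asked for the loop CAGTGN with any last base but G, 5 base pairs around it, an unpaired C below them and at least 3 pairs of 5 below that C, on the transcript strand only. In 27 bases from 5′ to 3′, with the loop in capitals (GENCODE annotation M21, GRCm38), the 5′ untranslated regions held 1 element each in Fth1 (chr19:9982733-9982759, plus strand), Ftl1 (chr7:45459780-45459806, minus strand) and Slc40a1 (chr1:45925466-45925492, minus strand), and the 3′ untranslated region of Tfrc held 4 (chr16:32631220-32631246, chr16:32631599-32631625, chr16:32631664-32631690 and chr16:32631711-32631737, plus strand).
Fth1 element: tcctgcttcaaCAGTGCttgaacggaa
Ftl1 element: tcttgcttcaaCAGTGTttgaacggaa
Slc40a1 element: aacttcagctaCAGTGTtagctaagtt
Tfrc element 1: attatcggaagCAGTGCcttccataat
Tfrc element 2: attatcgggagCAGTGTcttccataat
Tfrc element 3: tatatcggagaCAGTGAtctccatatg
Tfrc element 4: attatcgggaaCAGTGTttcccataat
Over all genes the pattern was rare: it was found in 9 of 20916 annotated 5′ untranslated regions (0.043%) and in 24 of 21039 annotated 3′ untranslated regions (0.114%). A match describes the letters only, and binding was not measured. The pattern was not found in the untranslated regions of the other 6 members. An element with an unpaired base in the stem next to the loop would be missed by this search. The absence of a match therefore does not mean that these members lack an element.

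How these genes responded to LPS and nigericin was asked first, in each genotype. Stimulated macrophages of both genotypes had far more mRNA of the siderophore-binding gene Lcn2, more of the iron transporter genes Slc11a1 and Slc11a2 and of Alas1, which starts heme synthesis, and far less of the exporter gene Slc40a1 and the transferrin receptor gene Tfrc. In KO, 4 members rose, 3 fell and 3 did not pass the test; in WT, 5 rose, 3 fell and 2 did not pass (edgeR's quasi-likelihood test, Benjamini-Hochberg adjusted p at most 0.05 over 17470 genes). The background was wide: 39.1% of all tested genes were called in KO (20.2% higher and 19.0% lower) and 40.5% in WT (20.6% higher and 20.0% lower). The members' median log2 fold change was 0.28 in KO and 0.43 in WT, against -0.03 and -0.01 over all tested genes. Of the members, 6 were called in the same direction in both genotypes, 0 in opposite directions and 1, Ireb2, in neither. The shares over all tested genes are for each genotype alone, so these joint counts have no background.

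**Figure D1:**
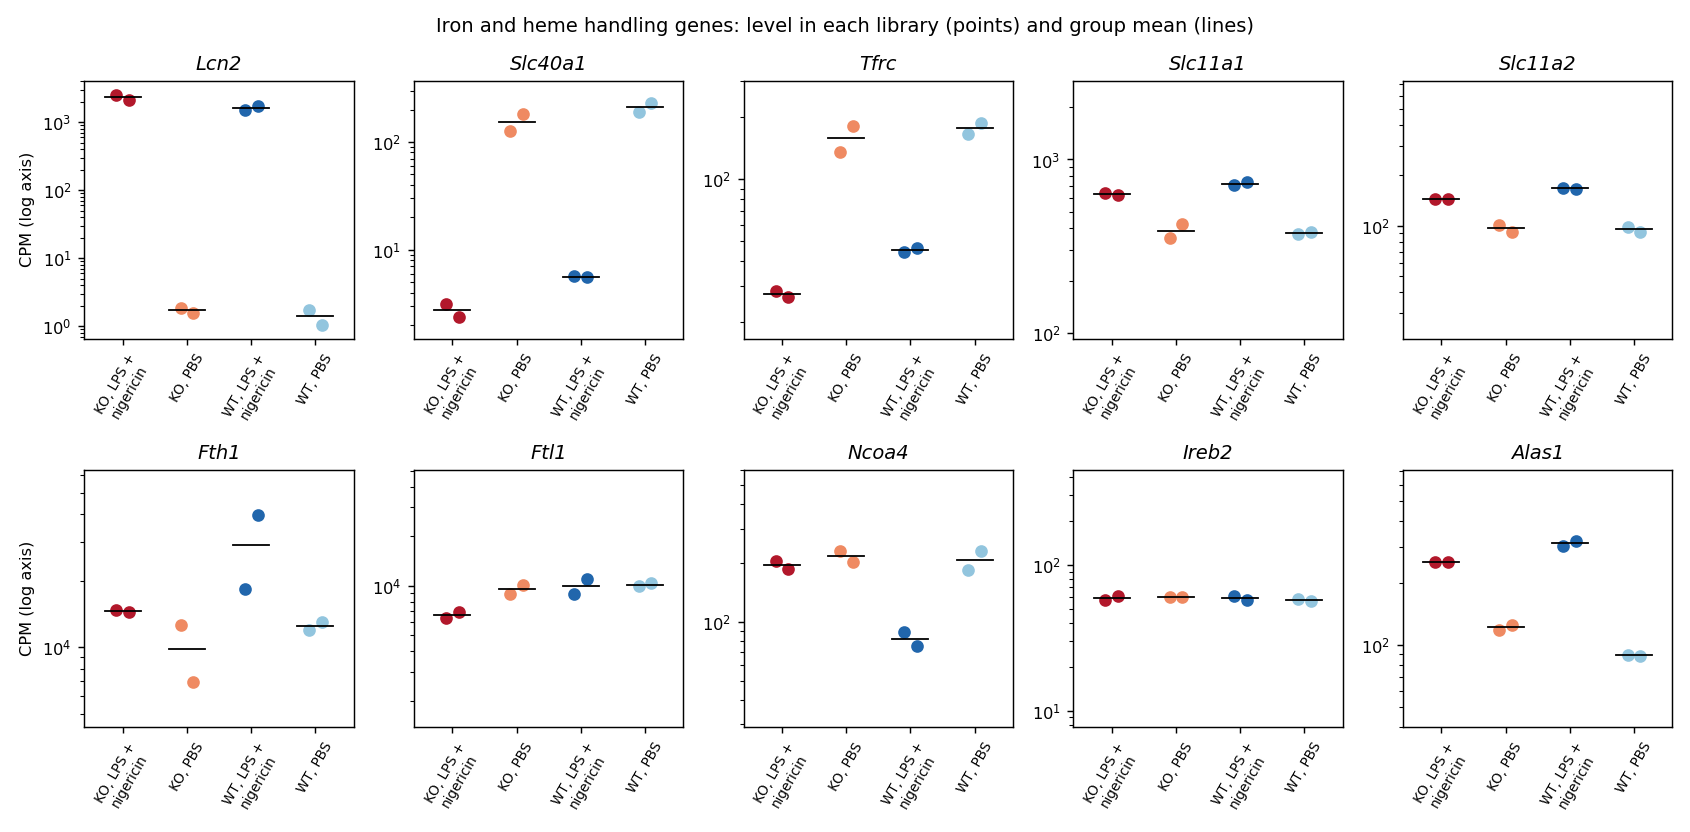
Level of each of the 10 genes in CPM (log axis, with a range of its own in each panel) in the 2 libraries of each group (points) and their mean (lines). Lcn2 is at 1513 to 2507 CPM in the 4 stimulated libraries and at 1.05 to 1.89 CPM in the 4 PBS libraries, while Slc40a1 and Tfrc are lower in every stimulated library, and the 2 stimulated WT libraries lie far apart in Fth1.

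Lcn2 (ENSMUSG00000026822, chromosome 2, 32384633 to 32388252, minus strand, GRCm38 as for all positions) encodes lipocalin 2, a secreted protein that captures bacterial siderophores. It had 2507 and 2101 CPM in stimulated KO against 1.89 and 1.59 CPM in KO with PBS. In stimulated WT it had 1513 and 1709 CPM, against 1.75 and 1.05 CPM in WT with PBS. All stimulated libraries lay far above all PBS libraries, and the PBS values rest on 70 to 114 counts per library. The log2 fold change was 10.37 ± 0.29 in KO (SE, n = 2 libraries per group here and in all values below, edgeR adjusted p = 1.11e-06) and 10.17 ± 0.28 in WT (adjusted p = 1.06e-06), or 1326-fold and 1149-fold. Among 17470 tested genes, ranked from the largest log2 fold change down, this was place 21 in KO and place 22 in WT. Lcn2 is also a gene of neutrophil granules, and neutrophil markers summed to 355 to 356 CPM in stimulated KO and 292 to 323 CPM in KO with PBS. The same 12 markers summed to 277 to 287 CPM in stimulated WT and 215 to 237 CPM in WT with PBS, with Csf3r, a receptor gene, the most abundant at up to 324 CPM and Ly6g and Retnlg at 0 counts in all libraries. Single markers moved more than these sums, in both directions. Camp moved most, from a mean of 0.02 CPM in KO with PBS to 3.17 CPM in stimulated KO. This was a log2 fold change of 6.89 (edgeR adjusted p = 0.00107). In WT its mean was 0 CPM with PBS and 1.85 CPM after stimulation. S100a8 had a log2 fold change of 2.82 in KO and 3.39 in WT, and Mmp8 of -3.52 and -3.42. Of the 8 markers tested, 2 rose and 1 fell in KO, and 3 rose and 1 fell in WT. Over all tested genes 39.1% were called in KO and 40.5% in WT. The part of these markers in the Lcn2 difference was not tested.

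Slc11a1 and Slc11a2 encode the NRAMP proteins that move iron and manganese out of the phagosome and the endosome. Slc11a1 (ENSMUSG00000026177, chromosome 1, 74375195 to 74386062, plus strand) had 642 and 623 CPM in stimulated KO and 354 and 422 CPM in KO with PBS. It had 709 and 740.5 CPM in stimulated WT and 374 and 381 CPM in WT with PBS. The gene rose by 0.70 ± 0.09 on the log2 scale in KO (edgeR adjusted p = 0.000859) and by 0.94 ± 0.09 in WT (adjusted p = 0.000218), and the libraries did not overlap in either genotype. Slc11a2, which encodes DMT1 (ENSMUSG00000023030, chromosome 15, 100387898 to 100425072, minus strand), had 144 and 145 CPM in stimulated KO and 101 and 91.6 CPM in KO with PBS. In stimulated WT it had 169 and 167 CPM, against 98.8 and 92.2 CPM in WT with PBS. Its rise was 0.58 ± 0.07 in KO (edgeR adjusted p = 0.000941) and 0.81 ± 0.07 in WT (adjusted p = 0.000191), again without overlap. Libraries that do not overlap were common, at 72.8% of tested genes in KO and 71.2% in WT.

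Tfrc (ENSMUSG00000022797, chromosome 16, 32608920 to 32632794, plus strand) encodes the receptor that brings transferrin-bound iron into the cell. It had 28.4 and 26.6 CPM in stimulated KO, against 136 and 181 CPM in KO with PBS. In stimulated WT it had 44.3 and 45.9 CPM, against 166 and 188 CPM in WT with PBS. Every stimulated library lay below every PBS library, with a log2 fold change of -2.53 ± 0.15 in KO (edgeR adjusted p = 2.16e-05, 5.77-fold lower) and -1.97 ± 0.14 in WT (adjusted p = 6.12e-05, 3.93-fold lower).

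Slc40a1 (ENSMUSG00000025993, chromosome 1, 45908068 to 45926523, minus strand) encodes ferroportin, the cellular iron exporter. Its level was 3.13 and 2.39 CPM in stimulated KO, against 125 and 181 CPM in KO with PBS. It was 5.73 and 5.54 CPM in stimulated WT, against 191 and 229.8 CPM in WT with PBS. The stimulated values rest on 157 to 322 counts per library, and no stimulated library came near a PBS library. The log2 fold change was -5.80 ± 0.25 in KO (edgeR adjusted p = 5.60e-06, 55.5-fold lower) and -5.22 ± 0.24 in WT (adjusted p = 7.25e-06, 37.3-fold lower). Ranked from the largest fall, this was place 252 of 17470 tested genes in KO and place 402 in WT.

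The ferritin genes had the highest levels of all members. Fth1 (ENSMUSG00000024661, chromosome 19, 9980598 to 9985098, plus strand) encodes the heavy chain, which oxidises iron on entry into the shell. It had 14748 and 14414 CPM in stimulated KO and 12584 and 6940.2 CPM in KO with PBS. In stimulated WT it had 18265 and 39612 CPM, against 12003 and 12993 CPM in WT with PBS. The stimulated libraries lay above the PBS libraries in both genotypes, but replicate 2 of stimulated WT stood far above replicate 1, and replicate 2 of KO with PBS far below its replicate 1. On the log2 scale these gaps were 1.12 and 0.86, and 1.72% and 2.93% of tested genes had a larger one in the same group. The log2 fold change was 0.58 ± 0.38 in KO (edgeR adjusted p = 0.280) and 1.21 ± 0.39 in WT (adjusted p = 0.0435). Without replicate 2 of stimulated WT the WT value was 0.54 ± 0.31 (adjusted p = 0.252), and the call was also lost without either stimulated KO library, without either WT PBS library, with no composition factor, with limma-voom, with the replicate number as a block and with only the WT groups fitted. Without replicate 2 of KO with PBS the KO value was 0.21 ± 0.41 (adjusted p = 0.752), and without its replicate 1 it was 1.07 ± 0.42 (adjusted p = 0.118).

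Ftl1 (ENSMUSG00000050708, chromosome 7, 45457944 to 45459884, minus strand) encodes the light chain, which helps iron to mineralise inside the shell. It had 6338 and 6884 CPM in stimulated KO and 8892 and 10108 CPM in KO with PBS, so the stimulated KO libraries were the lower ones. It had 8925 and 10988 CPM in stimulated WT and 9908 and 10307 CPM in WT with PBS, where the groups overlapped. The fall in KO was -0.52 ± 0.11 on the log2 scale (edgeR adjusted p = 0.00916), and the WT value was -0.02 ± 0.11 (adjusted p = 0.901). The KO call was lost without replicate 1 of stimulated KO or replicate 2 of KO with PBS (adjusted p up to 0.0612). Mouse ferritin genes have processed copies that can share reads: the light chain copies Ftl1-ps1, Ftl1-ps2 and Ftl2-ps held 2.71 to 3.97% of the count of Ftl1, and Ftl1-ps1 had 179.8 to 291 CPM. Of the heavy chain copies, Fth-ps2 had counts in all 8 libraries, Fth-ps3 in 3 and Fthl17f in 1. Ftl2-ps fell by 1.02 in KO (edgeR adjusted p = 0.0396) and Ftl1-ps1 rose by 0.38 in WT (adjusted p = 0.0432).

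Set against each other per kb of the principal transcript, the ratio of Fth1 to Ftl1 was 1.51 and 1.36 in stimulated KO and 0.917 and 0.445 in KO with PBS. The same ratio was 1.33 and 2.34 in stimulated WT and 0.785 and 0.817 in WT with PBS. The ratio was therefore higher in each stimulated library than in the PBS libraries of its genotype. The position of the ratio against 1 depends on the length used: with all annotated exons the mean ratio was 0.854 in stimulated KO and 1.09 in stimulated WT, against 1.43 and 1.83 with the principal transcripts.

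**Figure D2:**
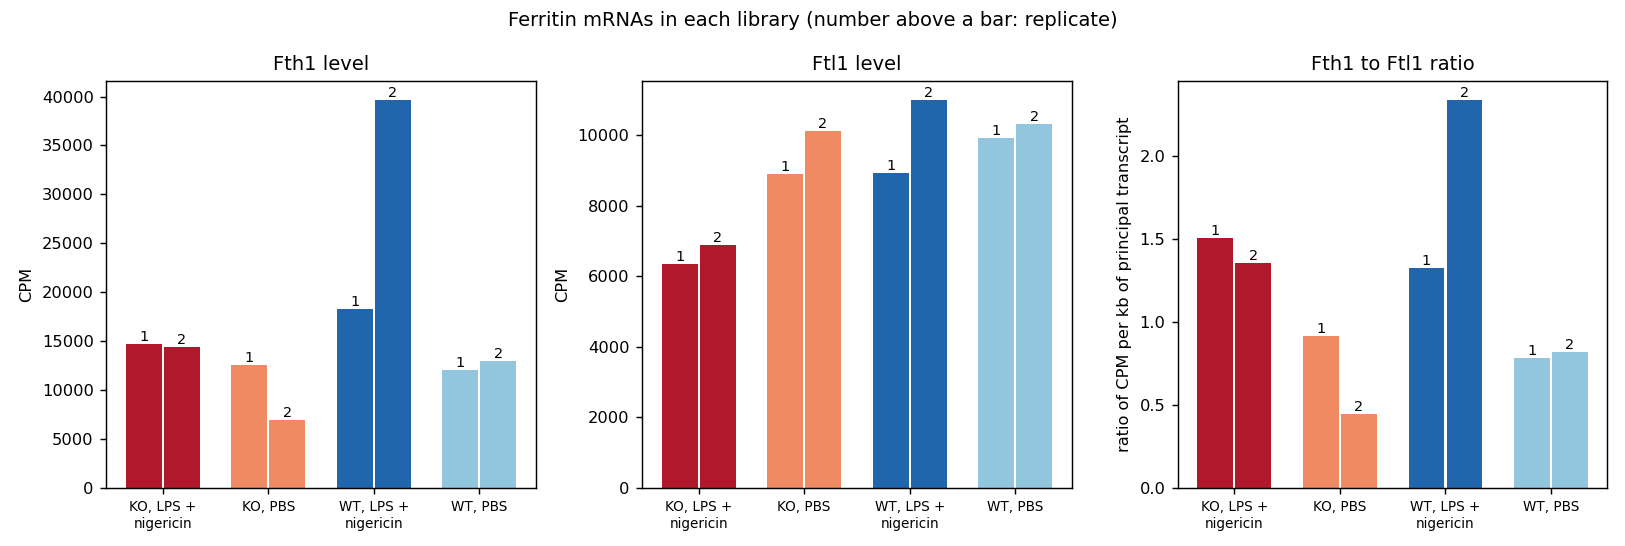
Levels of Fth1 and Ftl1 in CPM and their ratio per kb of principal transcript in each of the 8 libraries (bars; the number above a bar is the replicate). Replicate 2 of stimulated WT holds 39612 CPM of Fth1, against 18265 CPM in replicate 1, and the 2 stimulated KO libraries have the lowest Ftl1.

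Ncoa4 (ENSMUSG00000056234, chromosome 14, 32159865 to 32179855, plus strand) encodes the receptor that carries ferritin to the autophagosome. It had 206 and 187 CPM in stimulated KO and 231 and 203 CPM in KO with PBS, and these groups overlapped. It had 88.9 and 75.1 CPM in stimulated WT, against 185 and 230.0 CPM in WT with PBS, with no overlap. The WT log2 fold change was -1.34 ± 0.14 (edgeR adjusted p = 0.000332, 2.53-fold lower), and the KO value was -0.14 ± 0.14 (adjusted p = 0.453).

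Ireb2 (ENSMUSG00000032293, chromosome 9, 54863789 to 54912530, plus strand), which encodes the iron sensor IRP2, stayed between 56.1 and 61.5 CPM in all 8 libraries. Its log2 fold change was -0.02 ± 0.08 in KO (edgeR adjusted p = 0.858) and 0.05 ± 0.08 in WT (adjusted p = 0.630). The protein of Ireb2 is known to be controlled by its breakdown, which mRNA counts do not show.

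Alas1 (ENSMUSG00000032786, chromosome 9, 106233455 to 106248654, minus strand) encodes the housekeeping form of the enzyme that carries out the first step of heme synthesis. It had 253 and 251 CPM in stimulated KO, against 118 and 125 CPM in KO with PBS. In stimulated WT it had 304 and 319 CPM, against 89.7 and 88.5 CPM in WT with PBS. The 4 groups were fully separated, in the order stimulated WT, stimulated KO, KO with PBS and WT with PBS from high to low. The rise was 1.05 ± 0.06 on the log2 scale in KO (edgeR adjusted p = 2.42e-05, 2.07-fold) and 1.80 ± 0.06 in WT (adjusted p = 2.78e-06, 3.49-fold). The erythroid form Alas2 was not tested, with 10 counts in 1 WT PBS library and 0 in the other 7.

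**Figure D3:**
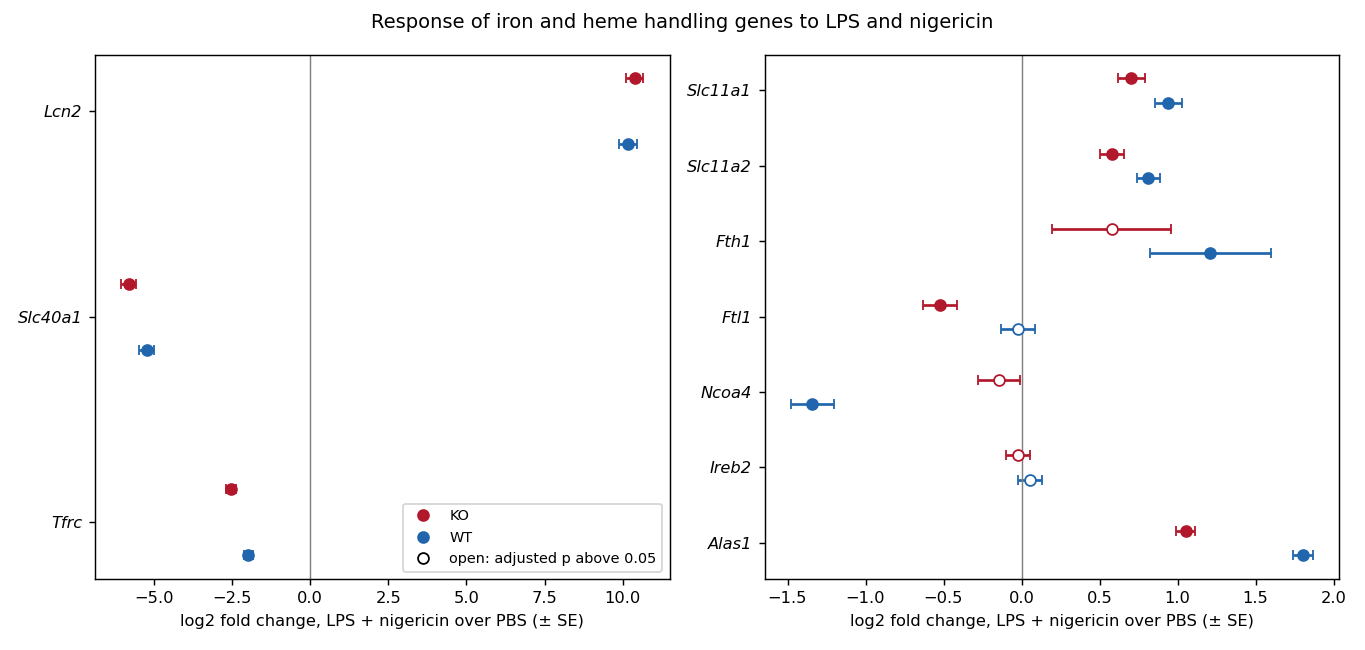
Log2 fold change of each gene for LPS and nigericin over PBS in KO and in WT (points, ± SE), with open points where the adjusted p is above 0.05. The left panel has a wider axis for Lcn2, Slc40a1 and Tfrc, and in the right panel Ncoa4 is at -0.14 in KO and -1.34 in WT and Alas1 at 1.05 in KO and 1.80 in WT.

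Of the calls named so far, those of Fth1 in WT and of Ftl1 in KO were lost in some alternatives, and the other 6 calls in KO and 7 in WT were kept in all 16 alternatives.

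The next comparison asked which members differed between stimulated KO and stimulated WT macrophages. Stimulated KO macrophages had 2.40 times the Ncoa4 mRNA of stimulated WT macrophages and less Slc40a1, Tfrc, Ftl1 and Alas1 mRNA. Of 10 members, 1 was higher, 4 were lower and 5 did not pass, against a background of 4.92% of all tested genes called (2.91% higher and 2.01% lower). The members' median log2 fold change was -0.26, against -0.00447 over all tested genes. With no composition factor in the scaling the median over all tested genes was 0.13, the share of called genes that were higher in KO moved to 81.6% in place of 59.1%, and 1 member was higher and 2 were lower.

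For Ncoa4 the 206 and 187 CPM in stimulated KO stood against 88.9 and 75.1 CPM in stimulated WT, a log2 fold change of 1.26 ± 0.14 (edgeR adjusted p = 0.00611). The call was lost without replicate 1 of stimulated KO (adjusted p = 0.0505) and kept in the other 15 alternatives. The other calls lay closer to the threshold. Slc40a1 was 2.05-fold lower in stimulated KO, with a log2 fold change of -1.03 ± 0.22 (edgeR adjusted p = 0.0480), and Tfrc was lower by -0.71 ± 0.14 (adjusted p = 0.0392). Ftl1 was lower by -0.59 ± 0.11 (edgeR adjusted p = 0.0347) and Alas1 by -0.30 ± 0.06 (adjusted p = 0.0434). In each of these 4 genes both KO libraries lay below both WT libraries, as they did or the reverse in 50.2% of all tested genes.

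Removing 1 library ended many of these calls. Those of Slc40a1 and Tfrc did not survive without either library of stimulated KO, stimulated WT or WT with PBS (adjusted p up to 0.218 for Slc40a1 and 0.187 for Tfrc). The Ftl1 call did not survive without either library of stimulated KO or of WT with PBS, or without replicate 2 of KO with PBS or of stimulated WT (adjusted p up to 0.187), and the Alas1 call without any 1 of the 8 libraries (up to 0.219). Slc40a1 and Alas1 were also not called with no composition factor, with no filter, with the replicate number as a block, or with only the stimulated groups fitted (adjusted p up to 0.0808 for Slc40a1 and 0.134 for Alas1). limma-voom called neither Slc40a1 (adjusted p = 0.252) nor Tfrc (adjusted p = 0.0618), and Ftl1 was not called with only the stimulated groups fitted (edgeR adjusted p = 0.0717). The direction stayed the same in all of these fits.

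Fth1 had both stimulated KO libraries below both stimulated WT libraries, with a log2 fold change of -0.99 ± 0.38 (edgeR adjusted p = 0.219), and -0.32 ± 0.31 without replicate 2 of stimulated WT (adjusted p = 0.671). Lcn2 had 2507 and 2101 CPM in stimulated KO against 1513 and 1709 CPM in stimulated WT, a value of 0.52 ± 0.19 that did not pass (edgeR adjusted p = 0.191) but passed with DESeq2 and limma-voom. Slc11a1 gave -0.20 ± 0.09 (edgeR adjusted p = 0.282) and Slc11a2 -0.22 ± 0.07 (adjusted p = 0.166), and Ireb2 gave -0.00166 ± 0.08 (adjusted p = 1).

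Markers of other cells moved with genotype in these libraries. The 10 fibroblast markers summed to 341 to 380 CPM in stimulated KO and 133 to 135 CPM in stimulated WT, 8 of 10 were higher in stimulated KO, and Col1a1 was the most abundant at up to 119 CPM. Macrophage markers without Lyz2 summed to 16426 to 16916 CPM in stimulated KO and 19031 to 19389 CPM in stimulated WT, and Lyz2, whose promoter drives the Cre, had 15405 and 14744 CPM in stimulated KO against 32222 and 34422 CPM in stimulated WT. In stimulated KO, 3 of the 10 macrophage markers were lower and 0 higher, or 2 of 9 lower and 0 higher without Lyz2. Of the 8 neutrophil markers tested, 1 was higher and 0 lower. Over all tested genes 4.92% were called in this comparison (2.91% higher and 2.01% lower). The part of these markers in the differences of the iron genes was not tested.

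With PBS, the question was whether the genotypes differed before stimulation, and 1 member did. Alas1 had 118 and 125 CPM in KO against 89.7 and 88.5 CPM in WT, a log2 fold change of 0.45 ± 0.06 (edgeR adjusted p = 0.0226, 1.36-fold). Of 10 members 1 was higher and 0 were lower, against 1.55% of all tested genes called (1.20% higher and 0.355% lower), and the members' median was 0.03, against 0 over all tested genes. The KO libraries lay fully apart from the WT libraries for Alas1, Ireb2 and Slc40a1, as for 48.6% of all tested genes. The Alas1 call did not survive without either library of stimulated KO, KO with PBS or WT with PBS (adjusted p up to 0.135), or with only the PBS groups fitted. Slc40a1 had 125 and 181 CPM in KO with PBS and 191 and 229.8 CPM in WT with PBS, a value of -0.46 ± 0.19 that did not pass (edgeR adjusted p = 0.329). The other 8 members lay between -0.36 ± 0.38 for Fth1 (edgeR adjusted p = 0.737) and 0.31 ± 0.24 for Lcn2 (adjusted p = 0.611). Fibroblast markers summed to 293 to 313 CPM in KO with PBS and 190.4 to 213 CPM in WT with PBS, with 2 of 10 higher and 0 lower in KO, and their part was not tested.

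**Figure D4:**
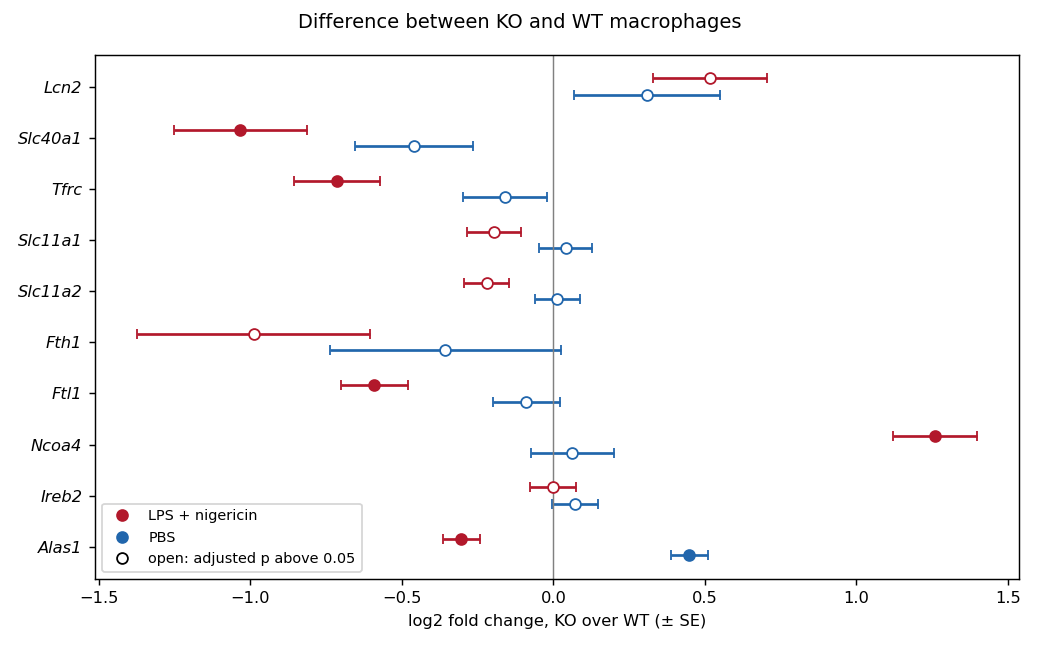
Log2 fold change of each gene for KO over WT macrophages after LPS and nigericin and with PBS (points, ± SE), with open points where the adjusted p is above 0.05. After stimulation Ncoa4 is at 1.26 and Slc40a1, Tfrc, Ftl1 and Alas1 are at -1.03 to -0.30, while with PBS only Alas1 is a filled point, at 0.45.

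Whether the response to LPS and nigericin itself differed between the genotypes was tested with the difference of the log2 responses, KO minus WT. Alas1 rose less in KO than in WT, by -0.75 ± 0.09 (edgeR adjusted p = 0.0249). This was 1 of 10 members lower and 0 higher, against 0.498% of all tested genes called (0.103% higher and 0.395% lower), and the members' median was -0.37, against -0.00227 over all tested genes. The Alas1 call was kept without replicate 1 of stimulated WT and lost without any 1 of the other 7 libraries (adjusted p up to 0.147). Ncoa4 had the largest difference in size among the members, 1.20 ± 0.19, and did not pass (edgeR adjusted p = 0.0721), while DESeq2 called it. The difference was -0.57 ± 0.29 for Slc40a1 (edgeR adjusted p = 0.548), -0.55 ± 0.20 for Tfrc (adjusted p = 0.363), -0.63 ± 0.54 for Fth1 (adjusted p = 0.745) and -0.50 ± 0.16 for Ftl1 (adjusted p = 0.293). Slc11a1 and Slc11a2 gave -0.24 ± 0.12 (edgeR adjusted p = 0.562) and -0.23 ± 0.11 (adjusted p = 0.505), Lcn2 gave 0.21 ± 0.30 (adjusted p = 0.887) and Ireb2 -0.07 ± 0.11 (adjusted p = 0.884). For stimulation, 39.1% of all tested genes were called in KO and 40.5% in WT. Of the 10 fibroblast markers, 4 rose and 1 fell in KO, while 1 rose and 6 fell in WT. In the difference itself 2 of these markers were higher and 0 lower. Their sums were 341 to 380 CPM in stimulated KO and 293 to 313 CPM in KO with PBS, and 133 to 135 CPM in stimulated WT and 190.4 to 213 CPM in WT with PBS. Their part in these differences was not tested.

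Levels of different genes were set side by side as CPM per kb of the principal transcript. In stimulated KO the order by mean level was Fth1 (9760 ± 158 CPM per kb, SD, n = 2), Ftl1 (6830 ± 399), Lcn2 (2518 ± 314), Slc11a1 (273 ± 5.75), Alas1 (74.2 ± 0.36), Ncoa4 (48.3 ± 3.34), Slc11a2 (47.6 ± 0.20), Ireb2 (10.3 ± 0.54), Tfrc (5.62 ± 0.25) and Slc40a1 (0.819 ± 0.155). The libraries of Ncoa4 and Slc11a2 overlapped there. With PBS the KO order was Ftl1 (9814 ± 889 CPM per kb), Fth1 (6534 ± 2671), Slc11a1 (168 ± 20.8), Ncoa4 (53.4 ± 4.95), Slc40a1 (45.4 ± 11.7), Alas1 (35.8 ± 1.42), Tfrc (32.4 ± 6.56), Slc11a2 (31.9 ± 2.22), Ireb2 (10.4 ± 0.06) and Lcn2 (1.90 ± 0.23), and each neighbouring pair of the genes from Ncoa4 to Slc11a2 except Slc40a1 and Alas1 had overlapping libraries. Lcn2 thus held the third place in stimulated KO and the last with PBS, with either length. Slc40a1 held the last place in stimulated KO with either length, but its place with PBS depends on the length: with all annotated exons it had 17.0 CPM per kb in KO with PBS, below Tfrc (25.6), Ncoa4 (23.2) and Alas1 (19.7). With that length Slc11a2 (22.7 CPM per kb) also stood above Ncoa4 (21.0) in stimulated KO.

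In stimulated WT the order was Fth1 (19370 ± 10103 CPM per kb), Ftl1 (10286 ± 1507), Lcn2 (1760.3 ± 152), Slc11a1 (313 ± 9.51), Alas1 (91.5 ± 3.12), Slc11a2 (55.4 ± 0.48), Ncoa4 (20.2 ± 2.40), Ireb2 (10.3 ± 0.53), Tfrc (9.22 ± 0.24) and Slc40a1 (1.67 ± 0.04). With PBS the WT order was Ftl1 (10442 ± 291 CPM per kb), Fth1 (8366 ± 469), Slc11a1 (163 ± 2.29), Slc40a1 (62.4 ± 8.19), Ncoa4 (51.1 ± 7.77), Tfrc (36.3 ± 3.18), Slc11a2 (31.6 ± 1.56), Alas1 (26.2 ± 0.24), Ireb2 (9.91 ± 0.25) and Lcn2 (1.53 ± 0.54). Ferritin mRNA exceeded that of every other member in all 4 groups, with either length. Other places depend on the length used: with all annotated exons Ftl1 stood above Fth1 in stimulated KO, Tfrc (7.29 CPM per kb) above Ireb2 (6.26) in stimulated WT, and Tfrc (28.7) above Slc40a1 (23.4) and Ncoa4 (22.2) in WT with PBS.

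Other genes of iron uptake, storage and sensing moved in both directions after stimulation. Of 20 tested genes of this list, 4 rose and 6 fell in KO, and 5 rose and 5 fell in WT, beside 39.1% of all tested genes called in KO and 40.5% in WT. The median log2 fold change was -0.15 in KO and -0.45 in WT, or -0.28 in WT with the 3 genes that had 0 counts in 1 WT group set to 3 counts there. Cp, which encodes ceruloplasmin, the copper oxidase that loads exported iron onto transferrin, had 238 and 255 CPM in stimulated KO, against a mean of 11.5 ± 0.72 CPM in KO with PBS (SD, n = 2). It had 193 and 177 CPM in stimulated WT and 5.45 and 4.59 CPM in WT with PBS. Cp rose by 4.42 ± 0.12 in KO (edgeR adjusted p = 9.77e-07) and by 5.20 ± 0.12 in WT (adjusted p = 5.61e-07). It therefore moved opposite to Slc40a1, whose protein works with ceruloplasmin in export.

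Trf, the gene of transferrin, fell by 2.41 in KO and 2.57 in WT on the log2 scale. Steap3, an endosomal iron reductase gene, fell by 1.63 in KO and 1.39 in WT, and Slc39a8, a gene of a zinc and iron importer, fell by 1.64 in KO and 1.96 in WT (largest edgeR adjusted p of these 6 values, 6.25e-05). Between genotypes, 1 of these 20 genes was higher and 0 were lower after stimulation, beside 4.92% of all tested genes called. That gene was the metal reductase gene Steap2, at 1.30 and 1.00 CPM in stimulated KO and 0.218 and 0.275 CPM in stimulated WT (log2 fold change 2.21 ± 0.43, edgeR adjusted p = 0.0378), a call lost without any 1 of the 8 libraries. With PBS Cp was 1.20 ± 0.11 higher in KO (edgeR adjusted p = 0.00515) and 0 genes of the list were lower. Over all tested genes 1.55% were called with PBS. Hamp, the gene of hepcidin, the hormone that removes ferroportin from the membrane, was not tested and had 2 and 4 counts in stimulated WT and 0 counts in the other 6 libraries.

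Of 13 other tested genes of heme synthesis, 3 rose and 0 fell in KO, and 2 rose and 2 fell in WT, with a median of 0.00607 in KO and 0.15 in WT. Over all tested genes the called shares were 39.1% in KO and 40.5% in WT, and the difference of the list from them was not tested. Slc25a38, which encodes the mitochondrial carrier that supplies glycine for the step made by ALAS1, rose by 0.85 ± 0.14 in KO (edgeR adjusted p = 0.00277) and by 1.13 ± 0.14 in WT (adjusted p = 0.000755). Tmem14c, a porphyrin importer gene, rose by 0.34 in KO (edgeR adjusted p = 0.0149) and 0.41 in WT (adjusted p = 0.00616), and Ppox, of the step before the last, rose by 0.33 in KO (adjusted p = 0.0177). Fech, which inserts iron in the last step, fell by 0.69 in WT (edgeR adjusted p = 0.0223) and Urod by 0.43 (adjusted p = 0.0171). Between genotypes edgeR, DESeq2 and limma-voom each called 0 of the 13 with either treatment. Over all tested genes edgeR called 4.92% after stimulation and 1.55% with PBS. At an unadjusted p of at most 0.05 there were 4 lower in stimulated KO and 1 lower in KO with PBS. The shares above are for the adjusted p. None over all tested genes is given here at the unadjusted threshold, so these counts have no background.

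Of 16 tested genes of heme uptake, transport and breakdown, 4 were called between the genotypes after stimulation, beside 4.92% of all tested genes. Hmox1, which encodes heme oxygenase 1, the enzyme that frees iron from heme, had 1358 and 1354 CPM in stimulated KO and 901 and 842 CPM in KO with PBS. It had 2729 and 2982 CPM in stimulated WT and 937 and 901 CPM in WT with PBS. Hmox1 rose in both genotypes, by 0.64 ± 0.07 in KO (edgeR adjusted p = 0.000363) and 1.64 ± 0.07 in WT (adjusted p = 5.38e-06), and was 1.07 ± 0.07 lower in stimulated KO than in stimulated WT (log2 fold change -1.07, adjusted p = 0.00109). The difference of responses was -0.998 ± 0.095 (edgeR adjusted p = 0.0140), and that call did not survive without either library of stimulated KO or without replicate 1 of WT with PBS (adjusted p up to 0.0823).

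Blvrb, a biliverdin reductase gene, had 258 and 256 CPM in stimulated KO against 403 and 463 CPM in stimulated WT. Its log2 fold change was -0.75 ± 0.08 (edgeR adjusted p = 0.00611). Blvra, the other biliverdin reductase gene of the list, gave -0.08 ± 0.09 and was not called (edgeR adjusted p = 0.722). Slc48a1, which encodes the transporter that brings heme out of the phagolysosome, had 599.5 and 589 CPM in stimulated KO against 904 and 997 CPM in stimulated WT (-0.68 ± 0.07, edgeR adjusted p = 0.00518). Cd163, the gene of the receptor for hemoglobin bound to haptoglobin, had 3.27 and 2.91 CPM in stimulated KO against 1.00 and 1.12 CPM in stimulated WT, a value of 1.54 ± 0.15 (edgeR adjusted p = 0.00450). The Blvrb call was lost without 1 or the other library of stimulated KO (adjusted p up to 0.0585) and the Slc48a1 call without replicate 1 (0.0527). Stimulated KO thus had 1 higher and 3 lower genes among the 16 tested of this list, with a median of -0.06.

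After stimulation itself 5 of these 16 genes rose and 6 fell in KO, and 8 rose and 6 fell in WT, with medians of 0.19 and 0.01, beside the 39.1% and 40.5% of all tested genes called in KO and in WT. Hp, the haptoglobin gene, rose by 5.45 in KO (edgeR adjusted p = 1.29e-06) and 6.35 in WT (adjusted p = 7.63e-07). Bach1, whose protein represses Hmox1 until heme binds it, fell by 1.63 in KO and 1.65 in WT, and Cd163 fell by 1.37 in KO and 2.93 in WT (largest edgeR adjusted p of these 4 values, 0.000400). With PBS 1 gene was higher and 0 were lower in KO, beside 1.55% of all tested genes called. That gene was Hp, with 27.7 and 26.9 CPM in KO against 9.35 and 10.7 CPM in WT (1.44 ± 0.14, edgeR adjusted p = 0.00584).

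Of 25 genes of mitochondrial iron and iron-sulfur cluster assembly, 12 rose and 3 fell in KO and 13 rose and 5 fell in WT, with medians of 0.30 and 0.31. Over all tested genes 20.2% rose and 19.0% fell in KO, and 20.6% rose and 20.0% fell in WT. Slc25a37, the gene of mitoferrin 1, which imports iron into mitochondria, rose by 2.26 ± 0.13 in KO (edgeR adjusted p = 2.14e-05) and 1.92 ± 0.13 in WT (adjusted p = 4.38e-05). The cluster transfer genes Hspa9 and Nfu1 rose by 0.56 and 0.90 in KO and by 1.03 and 0.99 in WT (largest edgeR adjusted p of these 4 values, 0.000566). Ciapin1, of the cytosolic cluster machinery, rose by 0.80 in KO (edgeR adjusted p = 0.000850) and Iba57, of late mitochondrial cluster assembly, fell by 1.05 in WT (adjusted p = 0.00168). Their means moved the same way in the other genotype. Ciapin1 had 24.3 CPM in stimulated WT and 15.5 CPM in WT with PBS. Iba57 had 7.33 CPM in stimulated KO and 11.2 CPM in KO with PBS. In the difference of responses 0 of the 25 genes were called, beside 0.498% of all tested genes. Stimulated KO and WT differed in 1 gene of 25 upward, Nubp2 (0.44, edgeR adjusted p = 0.0495), and 1 downward, Hspa9 (-0.55, adjusted p = 0.00621), with a median of 0.08. Over all tested genes 4.92% were called in this comparison. The Nubp2 call was lost without any 1 of the 8 libraries and the Hspa9 call without 1 or the other library of stimulated KO (adjusted p up to 0.0680). With PBS edgeR and limma-voom called 0 of the 25 between genotypes, beside 1.55% of all tested genes called by edgeR. DESeq2 called 2 higher and 1 lower, and 3 higher and 2 lower had an unadjusted p of at most 0.05. The 1.55% is for edgeR's adjusted p and is not a background for these counts. Over all genes DESeq2 also called more than edgeR with PBS.

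**Figure D5:**
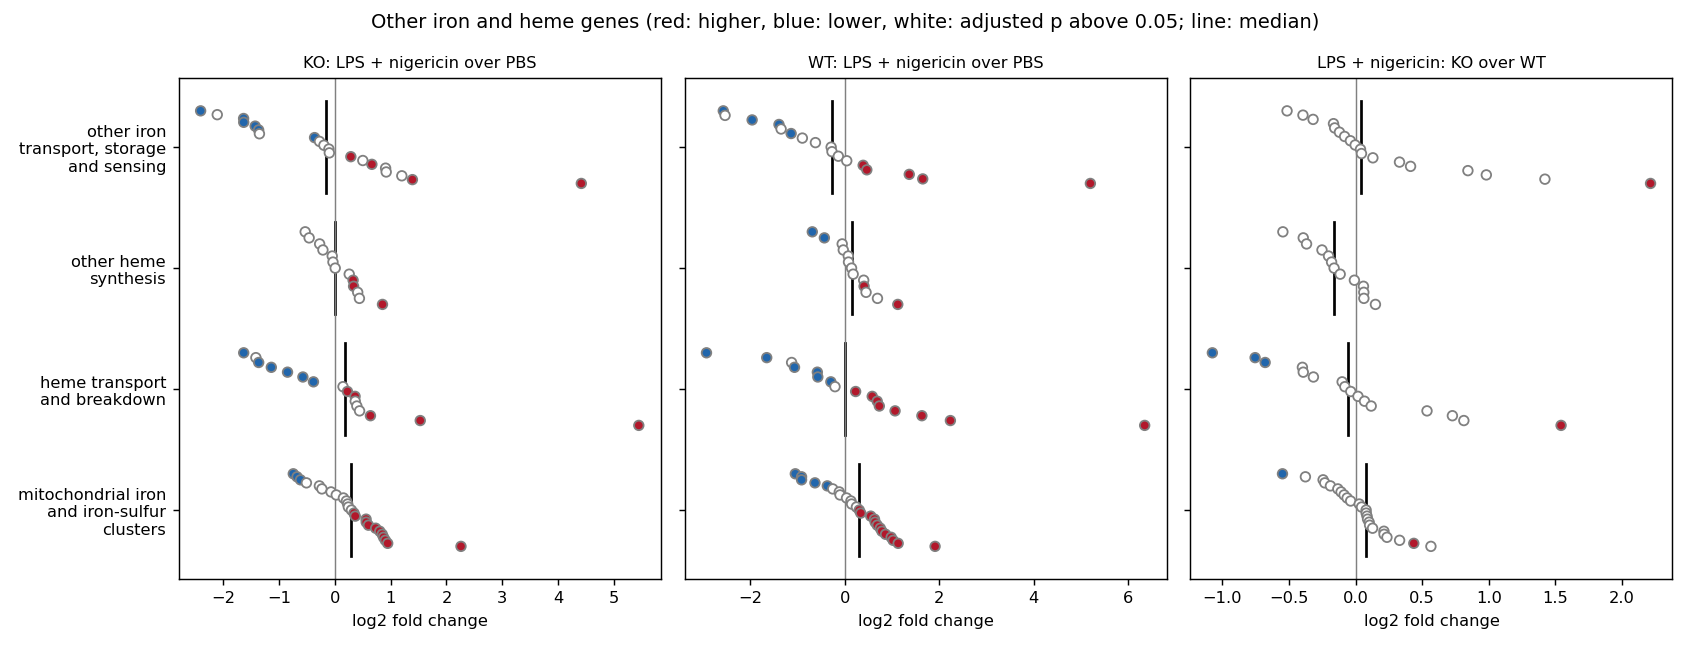
Log2 fold change of the tested genes of 4 other iron and heme lists (1 point per gene, sorted within a list) for stimulation in KO, stimulation in WT and KO over WT after stimulation; vertical lines are list medians with genes at 0 counts in 1 group set to 3 counts there, and those genes are not drawn. In the right panel few points are filled: Hmox1 at -1.07 and Cd163 at 1.54 lie at the ends of the heme transport and breakdown list.

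GGACT is among the sequences at which METTL3 writes m6A. Its occurrences in the longest coding transcript of each member were counted on the transcript strand, from the GENCODE M21 transcripts. Fth1 held 0, Ftl1 and Alas1 held 1 each, Lcn2, Ncoa4 and Slc11a1 held 2, Slc11a2 and Ireb2 held 4, and Tfrc and Slc40a1 held 6. Per kb the count was highest in Lcn2 at 2.19 and Slc40a1 at 1.78, and was 0.492 in Ncoa4 and 0.294 in Alas1. Over 13276 tested genes with a coding transcript the median was 1.05 per kb (quartiles 0.638 and 1.52), and 92.1% held at least 1. Other sequences at which METTL3 can act were not counted, so a count of 0 does not mean that a transcript has no site. The letters are a description only, and m6A was not measured in these libraries.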

How the data were processed

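Per the labels' protocols, Trizol was used for extraction and a commercial kit for the RNA-seq libraries; the sources used here do not give the strand setting. The deposited table holds 1 raw count per gene and library, made by the authors. Per the submitters' processing notes, Trimmomatic, Bowtie2, edgeR and the genome mm10 were used, without versions, and the counting tool and gene annotation are not named there. Unstranded reads of overlapping or antisense genes could not be told apart. Of 55401 genes, 55141 had a symbol in GENCODE M21.

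A single fit with a coefficient for each group covered all 8 libraries (edgeR 4.0.16, R 4.3.3; filterByExpr with minimum count 10 and minimum total 15; 17470 genes; TMM factors of 0.888 to 1.068). Quasi-likelihood F tests were adjusted with Benjamini-Hochberg over all tested genes in each of 5 comparisons, at 0.05. Standard errors are unshrunk log2 fold changes divided by the square root of F. DESeq2 1.42.0, limma-voom (limma 3.58.1), other scalings and filters, a replicate block, fits of only the groups compared and fits without 1 library were alternatives. The tests were run on simulated counts first. Per-kb levels use the APPRIS principal transcript; all annotated exons were an alternative chosen after seeing the data. A group at 0 counts was set to 3 counts in all where a list median needed it.

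The members and all gene lists were chosen with earlier results of these data known. Named genes are all members, Mettl3, up to 4 called genes with the smallest adjusted p per other list and comparison, ferritin copies with a count, and the most abundant marker of each list of other cells. Hamp, Alas2, Blvra, S100a8, Mmp8 and Camp, and the genes at which an iron-responsive element was searched, were named outside this rule. Repeats of a named gene in another comparison are exceptions too. The labels give 3 h of nigericin, while the series text names a second, shorter time.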

Additional observations from a re-analysis of the deposited data

Results flagged for a closer look

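The response to LPS and nigericin differed between KO and WT macrophages in the edgeR interaction test for 4 of the genes described. They are named because they passed this test, and each is given as the log2 response of KO minus that of WT. They were 1 of 10 members and, of 16 tested genes of heme uptake, transport and breakdown, 1 higher and 2 lower. The other iron and heme lists had 0 called of 20, 13 and 25 tested genes. Over all tested genes 0.498% were called. Alas1, of the first step of heme synthesis, gave -0.75, since it rose by 1.05 in KO and by 1.80 in WT. Hmox1, which opens the heme ring, gave -0.998 (0.64 in KO and 1.64 in WT). Blvrb, a biliverdin reductase gene, gave -0.92 (edgeR adjusted p = 0.0322), with 0.15 in KO and 1.07 in WT. Blvra, the other biliverdin reductase gene of that list, did not pass, at -0.09 (edgeR adjusted p = 0.884), with -0.38 in KO and -0.29 in WT. Cd163, the hemoglobin-haptoglobin receptor, gave 1.56 (edgeR adjusted p = 0.0413), with -1.37 in KO and -2.93 in WT. In fits without 1 library the Alas1 call was lost in 7 of 8 (adjusted p up to 0.147), the Blvrb call in 7 of 8 and the Cd163 call in 8 of 8 (adjusted p up to 0.156 and 0.158), and the Hmox1 call in 3 of 8. The Cd163 call was also lost with limma-voom, with no filter and with the replicate block. Cd163 was low in all groups, at up to 8.36 CPM.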

How the results depend on the processing

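Members called in both stimulation comparisons varied little: 6 to 7 in KO and 7 to 8 in WT over all alternatives. Between stimulated genotypes 5 members were called, against 6 with DESeq2, 4 with limma-voom, 3 with no composition factor, 3 with no filter, 3 with the replicate block, 2 with only the groups compared and 0 to 4 in fits without 1 library, in which a lone library is assumed to vary like the other groups. With PBS 1 was called, against 0 with only the groups compared and 0 to 1 without 1 library. For the difference of responses 1 was called, against 2 with DESeq2 and 0 to 1 without 1 library. Over all genes 860 were called between stimulated genotypes, against 1654 with DESeq2, 503 with only the groups compared and 156 to 594 without 1 library. With PBS the 271 calls compare with 876 by DESeq2, 45 with only the groups compared and 80 to 260 without 1 library. For the difference the 87 calls compare with 486 by DESeq2 and 20 to 99 without 1 library. The labels do not say whether equal replicate numbers pair the samples. The deviations of same-numbered libraries correlated at -0.0242 to 0.183 between groups. With 2 libraries per group this cannot decide whether they are paired, and the block was used only as an alternative. With no composition factor the median log2 fold change over all genes was -0.20 for stimulation in WT, where 36.5% of calls were higher in place of 50.7%, -0.11 in KO and 0.10 for the difference.

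No called value changed direction, and the 25 values that did were not called. Fits without 1 library gave Ireb2 -0.076 to 0.030 in KO, Ftl1 -0.19 to 0.12 in WT (with 0.00215 without WT PBS replicate 2) and, between stimulated genotypes, Ireb2 -0.058 to 0.049. With no composition factor Ireb2 was -0.13 in WT, 0.14 between stimulated genotypes and 0.031 in the difference. Between stimulated genotypes Ireb2 was also 0.00164 with DESeq2's size factors, 0.00193 with DESeq2, 0.00029 with limma-voom, 0.018 with the filter of 5 CPM and 0.018 with only the groups compared. With PBS, fits without 1 library gave Tfrc -0.38 to 0.032, Ftl1 -0.18 to 2.19e-05, Slc11a2 -0.060 to 0.083, Ncoa4 -0.084 to 0.22, Fth1 -0.85 to 0.010, Slc11a1 -0.091 to 0.16 and Lcn2 -0.020 to 0.72. In the difference they gave Fth1 -1.09 to 0.054 and Lcn2 -0.21 to 0.55. The cause was not tested. The mean Fth1 to Ftl1 ratio with all exons was 0.406 in KO with PBS and 0.477 in WT with PBS, against 0.681 and 0.801. Every member had at least 70 counts in every library, and each group had 2 libraries.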
